A study of Rattus norvegicus with 71 samples.

Results

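The 5 genes described here are those of GABA synthesis, vesicle loading and neonatal chloride transport: Gad1, Gad2, Slc32a1, Slc12a2 and Slc12a5. They were chosen by symbol, with no measured value in the rule, and are 5 of the 17494 genes in the count table. The choice was made with earlier results of these data known. All 5 passed every filter on low counts, and the lowest count of any of them in any library was 602 (Gad2).

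Levels are given as CPM, counts relative to the TMM-scaled library total, or as RPKM, CPM per kilobase of exon, and a gene was called where its adjusted p was under 0.1. RNA was sequenced from 1 coronal brain slice of each of 71 offspring at postnatal day 2, wild type by label, 35 males and 36 females from 27 litters of immunized Sprague-Dawley rat dams. Per the sample labels, which were followed here, the slice took in hippocampus, overlying cortex and deeper subcortical tissue, whereas the design text of the series names frontal cortex with hypothalamus. Every dam received Freund's adjuvant. Control dams received it with saline (24 animals, 7 litters), and the dams of the maternal autoantibody-related (MARA-AB) groups received it with peptides of the antigens that name the group. These were CRMP1+CRMP2 (8 animals, 4 litters), LDHA/B+CRMP1+STIP1 (25 animals, 9 litters), CRMP1+GDA (6 animals, 3 litters) and STIP1+NSE (8 animals, 4 litters). The antibodies reached the offspring through the dam, so that littermates share 1 exposure and litters, not animals, are its independent units. The libraries came in 2 experimental batches, taken here from the series of the sample titles. Of the 24 controls 12 were in each batch. LDHA/B+CRMP1+STIP1 was split into 16 animals in batch 1 and 9 in batch 2, and the remaining 3 exposures were in batch 2 alone. Males and females were present in each group of each batch, although 1 control litter gave 4 females and another 4 males. The libraries held 24880182 to 36234952 counts.

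GABA is the main inhibitory transmitter of the adult brain. Inhibitory neurons make it from glutamate with 2 glutamic acid decarboxylases, GAD67 (Gad1), which supplies most of the cell's GABA, and GAD65 (Gad2), which is concentrated at nerve terminals. The vesicular transporter VGAT (Slc32a1) then loads it into synaptic vesicles. The sign of the response in the receiving neuron depends on its chloride content. NKCC1 (Slc12a2) carries chloride into cells and is also found in glia, oligodendrocyte precursors and choroid plexus, whereas the neuronal exporter KCC2 (Slc12a5) removes it. In rodents KCC2 rises over the first postnatal weeks, while GABA changes from a depolarizing to a hyperpolarizing transmitter, and it does so earlier in caudal and ventral brain regions than in cortex.

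In the rn7 annotation of the count table, Gad1 lies on chromosome 3 (55369704 to 55410335, 17 exons, 3198 exonic bases), Gad2 on chromosome 17 (84763630 to 84826153, 16 exons, 1963 bases) and Slc32a1 on chromosome 3 (147267373 to 147271842, 2 exons, 2383 bases). Slc12a2 lies on chromosome 18 (51348302 to 51416440, 27 exons, 6401 bases) and Slc12a5 on chromosome 3 (153703902 to 153735765, 27 exons, 5558 bases). All are on the forward strand.

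The sequences upstream of the 3 GABA genes, whose levels rose and fell together across litters, are shown with that of the chloride exporter Slc12a5. They are the 250 bases before the RefSeq gene start in GRCr8, a newer build than that of the counts, 5′ to 3′ on the forward strand. They lie at chr3:75777202-75777451 (Gad1), chr17:89671468-89671717 (Gad2), chr3:167686995-167687244 (Slc32a1) and chr3:174115583-174115832 (Slc12a5). All 5 genes matched a RefSeq promoter. Capitals mark matches on either strand to a TATA box core (TATAAA), a homeodomain core (TAATT), a GC box (GGGCGG) or an EGR site (GCGNGGGCG).
Gad1: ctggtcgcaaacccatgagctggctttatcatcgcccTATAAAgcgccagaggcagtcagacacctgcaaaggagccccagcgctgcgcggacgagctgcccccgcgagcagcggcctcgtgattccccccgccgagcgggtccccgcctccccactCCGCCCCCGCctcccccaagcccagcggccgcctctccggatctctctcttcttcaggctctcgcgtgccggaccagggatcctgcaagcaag
Gad2: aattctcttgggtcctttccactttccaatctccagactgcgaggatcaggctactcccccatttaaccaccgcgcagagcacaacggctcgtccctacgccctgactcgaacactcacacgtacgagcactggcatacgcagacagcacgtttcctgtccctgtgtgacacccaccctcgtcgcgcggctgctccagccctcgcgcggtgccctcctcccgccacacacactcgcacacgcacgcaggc
Slc32a1: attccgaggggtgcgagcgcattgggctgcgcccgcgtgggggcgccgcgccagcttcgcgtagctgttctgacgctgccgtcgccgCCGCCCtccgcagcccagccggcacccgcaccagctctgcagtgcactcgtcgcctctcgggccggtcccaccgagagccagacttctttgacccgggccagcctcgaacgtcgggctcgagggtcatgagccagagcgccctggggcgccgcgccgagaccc
Slc12a5: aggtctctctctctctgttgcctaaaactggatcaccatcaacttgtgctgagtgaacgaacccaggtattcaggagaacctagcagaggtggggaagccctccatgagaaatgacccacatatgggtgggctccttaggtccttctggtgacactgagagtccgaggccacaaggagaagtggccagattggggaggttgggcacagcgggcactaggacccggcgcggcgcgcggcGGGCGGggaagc
Gad1 held 1 TATAAA, which starts 213 bases before the gene start, and a GC box and an EGR site that overlap each other, 93 and 92 bases before it. Gad2 held none of the 4 motifs, Slc32a1 held 1 GC box and Slc12a5 held 1 GC box, 12 bases before its start. The upstream window of Slc12a2, not printed, held 3 GC boxes and no other motif. Over all 33469 RefSeq promoters, cut to the same 250 bases, 12.9% held TATAAA, 26.2% TAATT, 30.5% the GC box and 4.29% the EGR site. The windows were rich in CpG, with 23 in Gad1, 22 in Gad2, 34 in Slc32a1, 48 in Slc12a2 and 11 in Slc12a5, against a median of 5 over all promoters. No motif was shared by Gad1, Gad2 and Slc32a1. These matches describe letters only.

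Several libraries stood apart in RNA of tissue beside the slice. Summed over 5 pineal genes, 5 libraries held at least 10 CPM (2 of CRMP1+CRMP2, 2 of STIP1+NSE and 1 of CRMP1+GDA, none of the controls), and summed over 5 Hox genes, which mark hindbrain and spinal cord, 8 did (2 of CRMP1+CRMP2, 2 of CRMP1+GDA, 3 of LDHA/B+CRMP1+STIP1 and 1 control). The farthest was CRMP1+CRMP2 replicate 2, a female, with 247 CPM of pineal RNA and 3586 CPM over 10 choroid plexus genes, the highest of the 71 libraries in both. It also had the lowest CPM of the 71 libraries for Gad1, Gad2 and Slc32a1 and the highest for Slc12a2, so that the CRMP1+CRMP2 values of the 5 genes and of the gene lists are given with and without it. The labelled tissue was present throughout, with 821 to 2547 CPM over 9 cortex and hippocampus markers. These are bulk samples, in which fewer cells of a type and less RNA per cell cannot be told apart.

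Per base of exon, Slc12a5, Slc32a1 and Gad1 were the higher genes, Gad2 followed and Slc12a2 was lowest. Over the 71 animals the level in RPKM was 56.5 ± 18.5 (SD, n = 71) for Slc12a5, 56.2 ± 16.6 for Slc32a1, 50.4 ± 14.1 for Gad1, 32.1 ± 12.6 for Gad2 and 11.8 ± 1.83 for Slc12a2. The first 3 means lay within their spread, and Slc32a1 was above Slc12a5 in 35 animals and below it in 36. Gad1 was above Gad2 in 71 of 71 animals, with a ratio of 1.12 to 2.40. Slc12a5 was above Slc12a2 in 71 of 71. The order of the higher genes depended on the batch. In batch 1, Slc32a1 was above Slc12a5 in 27 of 28 animals and Gad1 was above it in 25 of 28, whereas in batch 2 Slc12a5 was above Slc32a1 in 35 of 43 and above Gad1 in 40 of 43.

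The 5 genes also differed in how far they varied. The highest animal exceeded the lowest 7.81-fold in CPM for Gad2, 5.39-fold for Gad1, 4.07-fold for Slc32a1, 3.85-fold for Slc12a5 and 2.00-fold for Slc12a2. In the 12 batch 2 controls, Gad1 ranged from 134 to 201 CPM with a coefficient of variation of 10.7%, and in the 12 batch 1 controls from 83.6 to 311 CPM with one of 38.5%. Within batch and group, differences between litters took 6.46% of the variance of Gad1 on the log2 scale, 19.5% of Gad2, 27.1% of Slc32a1, 29.7% of Slc12a2 and 28.7% of Slc12a5. Most of the spread of each gene therefore lay within litters.

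**Figure D1:**
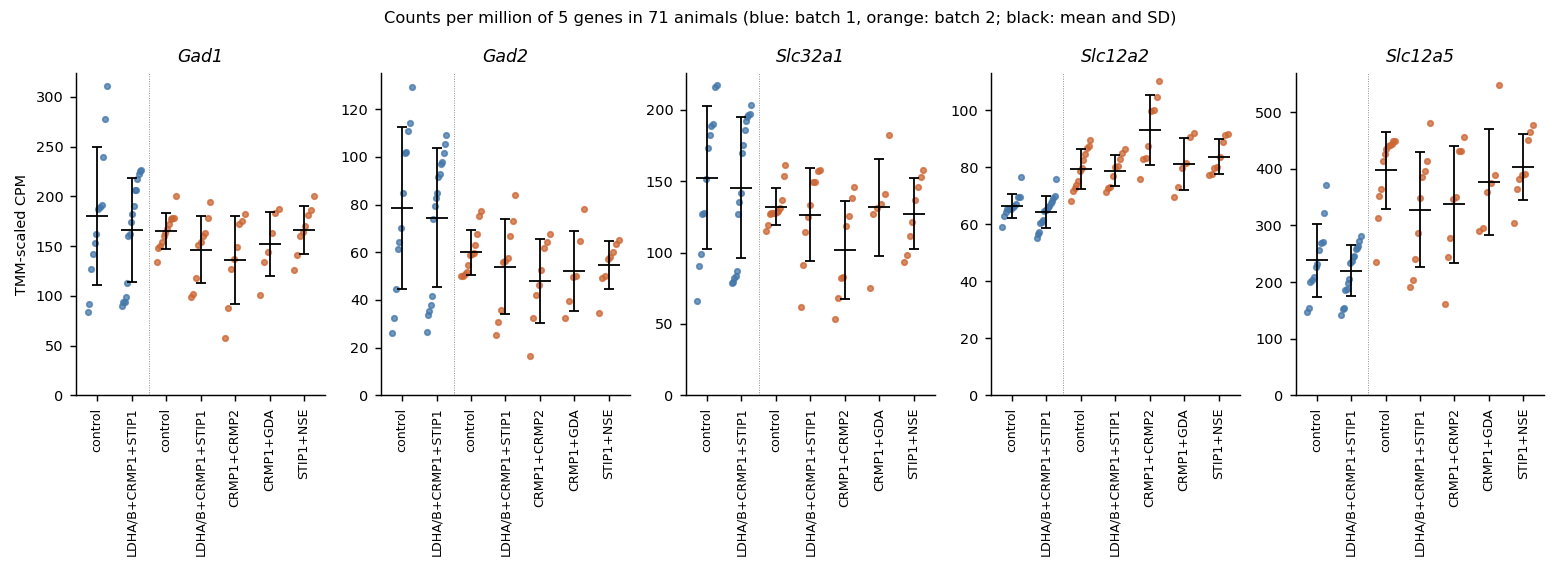
TMM-scaled CPM (vertical axis, linear from 0) of the 5 genes in each of the 71 animals by group, batch 1 in blue and batch 2 in orange. Points are sorted by value within a group, and black bars give the mean and SD. The 12 batch 2 controls of Slc12a5 reach from 235 to 449 CPM and those of batch 1 from 148 to 372, while CRMP1+CRMP2 holds the lowest animal of all for Gad1, Gad2 and Slc32a1.

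The controls, which carry no exposure, show what separates the batches. Slc12a5 and Slc12a2 were called, 2 of the 5 members, a share near that of all genes tested (41.6%). Gad1, Gad2 and Slc32a1 were not called, and the difference between these 3 and the called genes was not tested. Slc12a5, the chloride exporter KCC2, reached 148, 229.7 and 372 CPM (lowest, median and highest) in the 12 batch 1 controls and 235, 431 and 449 CPM in the 12 batch 2 controls. All 12 batch 2 controls were above the batch 1 median and 8 were above the highest batch 1 control. Its log2 fold change, batch 2 against batch 1, was 0.75 (SE 0.129, edgeR quasi-likelihood test with sex as covariate, adjusted p = 8.63e-05). Slc12a2, the importer NKCC1, reached 59.1, 65.6 and 76.6 CPM in batch 1 and 68.1, 79.2 and 89.7 CPM in batch 2. Again all 12 batch 2 controls were above the batch 1 median, and 7 were above its highest control (log2 fold change 0.26, SE 0.048, edgeR adjusted p = 0.000118). Both thus rose in batch 2, where 41.6% of the 12089 genes tested were called (21.4% higher, 20.2% lower), and both stayed called in edgeR with counts summed per litter (3 against 4 litters, adjusted p = 0.0523 for Slc12a5 and 0.0588 for Slc12a2).

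Gad1 in the same controls was at 83.6, 175 and 311 CPM in batch 1 and 134, 165 and 201 CPM in batch 2 (log2 fold change -0.11, SE 0.161, edgeR adjusted p = 0.653). Gad2 was at 26.3, 77.6 and 129 CPM against 49.9, 59.2 and 77.5 CPM (-0.38, SE 0.204, adjusted p = 0.160). Slc32a1 was at 65.8, 162 and 217 CPM against 115, 128 and 161 CPM (-0.19, SE 0.147, adjusted p = 0.331). Every batch 2 control lay below the batch 1 median for Gad2 and Slc32a1, but none lay below the lowest batch 1 control. These 2 genes depended on which batch 1 litter entered. Without control litter RNA4, edgeR called Gad2 (-0.62, adjusted p = 0.0109) and Slc32a1 (-0.40, adjusted p = 0.0108) lower in batch 2, whereas without litter IgG2 their values were -0.16 and -0.03 (adjusted p = 0.595 and 0.901).

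Slc12a5 exceeded Slc12a2 by more in batch 2 controls. The ratio of NKCC1 to KCC2 RNA in RPKM was 0.261 ± 0.0835 (SD, n = 12) in batch 1 and 0.178 ± 0.0345 (n = 12) in batch 2, with ranges of 0.147 to 0.433 and 0.133 to 0.265. The ranges overlapped, and no test of this ratio was made.

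Markers of thalamus, diencephalon, choroid plexus and striatum moved between these controls by more than the 5 genes. Of 7 thalamus genes, 6 rose in batch 2 (median log2 fold change 2.57), led by Tcf7l2, a transcription factor of the thalamus (5.22), and Lhx9 (4.30). All 9 genes of the diencephalon list, transcription factors of diencephalic, pretectal and hypothalamic neurons of both inhibitory and other kinds, rose (median 3.97, with Otp at 5.19 and Gata3 at 4.61), and so did the 9 tested choroid plexus genes (median 3.27). In the other direction, 10 of 13 striatum genes fell (median -1.56), among them Drd1 and Adora2a, dopamine and adenosine receptors of striatal projection neurons (-1.89 and -2.19). Of 16 genes of forebrain GABA lineages 10 fell (median -0.40), with Dlx5 at -1.23 and Lhx6, a factor of medial ganglionic eminence interneurons, at -0.52. Of 9 cortex and hippocampus genes 7 fell and 1 rose (median -0.76), whereas the median of all genes tested was 0.0016. Summed thalamus markers ran from 74.1 to 166 CPM in batch 1 controls and from 317 to 1049 CPM in batch 2 controls, and summed striatum markers from 542 to 1482 CPM and 323 to 526.4 CPM, with no overlap in either. The part of these shifts in the Slc12a5 and Slc12a2 results was not tested between batches. The level at which the slice was cut and the processing of the batch cannot be told apart.

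Other genes of GABA handling went both ways in the controls, with 3 higher and 3 lower of 10 tested. The subunits of the GABA-B receptor rose (Gabbr1 0.23, SE 0.0451; Gabbr2 0.30, SE 0.0546), as did the transporter GAT-3 (Slc6a11, 0.35, SE 0.0767). Succinate semialdehyde dehydrogenase (Aldh5a1, -0.30), glutamine synthetase (Glul, -0.17) and the glutamine transporter Slc38a1 (-0.31) fell. Of 19 other genes of chloride handling 5 rose and 3 fell. Stk39, the kinase SPAK that activates NKCC1 and inhibits KCC2, rose by 0.36 (SE 0.0694), carbonic anhydrase 2 (Car2) by 0.79 (SE 0.155), and Neto2, an auxiliary protein that binds KCC2, fell (-0.24, SE 0.0419, edgeR adjusted p = 7.45e-05). Of 7 genes known to regulate Slc12a5, Bdnf (2.01, SE 0.179) and Usf1 (0.13, SE 0.049) rose and Egr4, an activator of the KCC2 promoter, fell (-1.43, SE 0.221, adjusted p = 1.97e-05). In the batch with more Slc12a5 RNA, Egr4 was thus lower and Bdnf and Usf1 were higher. The part of any of them in the Slc12a5 difference was not tested. These lists were chosen with earlier results of the data known, and their counts stand beside the 41.6% of all genes called.

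**Figure D2:**
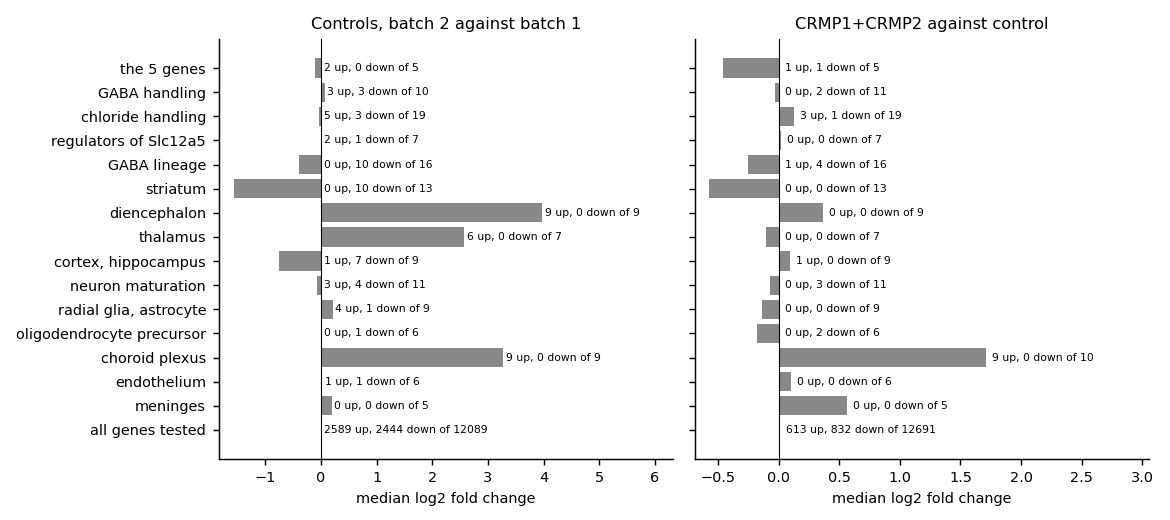
Median log2 fold change (horizontal axis) of each gene list in the controls, batch 2 against batch 1 (left), and in CRMP1+CRMP2 against all controls (right), with the number of genes called higher and lower at FDR < 0.1 and the number tested. Regional lists reach 3.97 on the left, while the 5 genes have medians of -0.11 and -0.46.

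Across litters, the genes of GABA synthesis and loading moved together in both batches. Over the litter means of log2 CPM, Gad1 and Gad2 had a Pearson r of 0.96 in the 7 litters of batch 1 (Spearman rho 0.96, exact permutation tests, adjusted p = 0.00198 and 0.0139) and 0.94 in the 20 litters of batch 2 (rho 0.81, 100000 permutations, adjusted p = 5e-05 and 0.0004). Gad1 and Slc32a1 had r = 0.99 (rho 0.93, exact permutation tests, adjusted p = 0.00198 and 0.0225) and 0.85 (rho 0.73, permutation tests, adjusted p = 5e-05 and 0.00215). The unadjusted p of Gad1 with Gad2 and with Slc32a1 in batch 2, 1e-05, is the smallest that these permutations can give. Without the 2 litters farthest from the median of Gad1, r was 0.82 and 0.89 for Gad2 and 0.97 and 0.76 for Slc32a1. The p-values are two-sided and adjusted over the 10 pairs of each batch. These r, and those over litters below, pool the control and exposed litters of a batch without removal of group means. CRMP1+CRMP2 replicate 2 was kept in the mean of its litter.

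Slc12a5 rose and fell with the GAD genes in both batches. Gad2 and Slc12a5 had r = 0.97 in batch 1 (rho 0.89, exact permutation tests, adjusted p = 0.00198 and 0.0308) and 0.77 in batch 2 (rho 0.66, permutation tests, adjusted p = 0.0006 and 0.00633), and 0.83 and 0.69 without the 2 farthest litters. Slc32a1 and Slc12a5 had r = 0.89 in batch 1 (rho 0.86, exact permutation tests, adjusted p = 0.0112 and 0.0397) but 0.43 in batch 2 (rho 0.23, permutation tests, adjusted p = 0.0814 and 0.369). The latter fell to 0.25 without the 2 farthest litters and rests on them.

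Slc12a2 had negative r with the GABA genes over these pooled litters. With Slc32a1 it had r = -0.64 in batch 2 (rho -0.65, permutation tests, adjusted p = 0.00413 and 0.0069, and r = -0.70 without the 2 farthest litters), and r = -0.67 in the 7 litters of batch 1 (rho -0.64, exact permutation tests, adjusted p = 0.121 and 0.154). Slc12a2 and Slc12a5, importer and exporter, had r = -0.44 and rho -0.79 in batch 1 (exact permutation tests, adjusted p = 0.323 and 0.0686), and r = 0.05 and rho 0.08 in batch 2 (permutation tests, adjusted p = 0.830 and 0.729). NKCC1 and KCC2 RNA were thus inversely ranked over the 7 litters of batch 1 and showed no relation past the threshold over the 20 of batch 2.

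**Figure D3:**
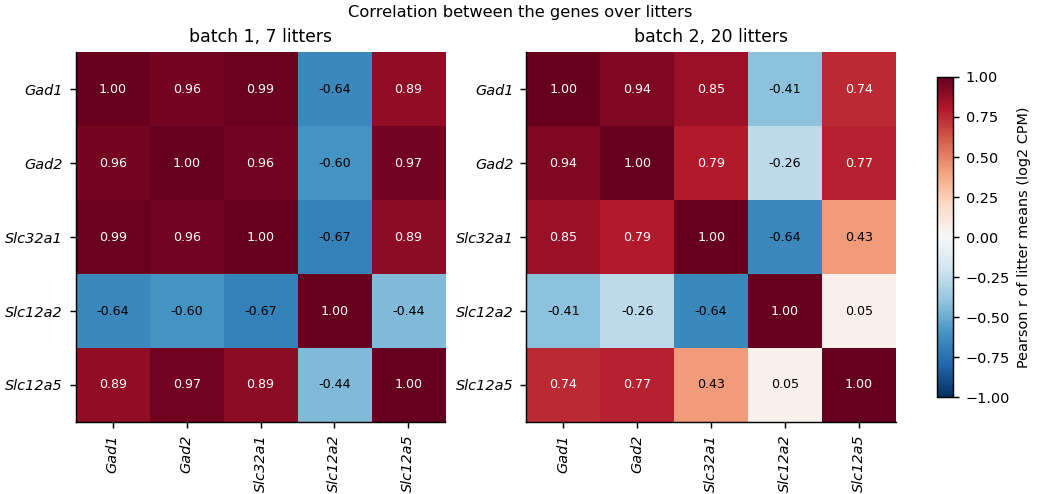
Pearson r of litter means of log2 CPM between the 5 genes in batch 1 (left, 7 litters) and batch 2 (right, 20 litters), from blue (-1) to red (1). Gad1, Gad2 and Slc32a1 form a block of 0.79 or above in both, and Slc12a2 has r from -0.26 to -0.67 with each of the 3.

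The variation over litters was also compared with the gene lists, among them markers of brain regions. The list scores are means of log2(CPM + 1), and the p-values are adjusted over the 70 relations of the 5 genes with 14 lists in each batch. Slc32a1 followed the striatum list, with r = 0.90 in batch 1 (rho 0.86, exact permutation tests, adjusted p = 0.0440 and 0.152, r = 0.95 without the 2 farthest litters) and 0.89 in batch 2 (rho 0.84, permutation tests, adjusted p = 0.0007 for both, r = 0.86 without the 2). Slc12a5 followed the thalamus list, with r = 0.81 in batch 1 (rho 0.68, exact permutation tests, adjusted p = 0.0938 and 0.333, r = 0.95 without the 2) and 0.84 in batch 2 (rho 0.78, permutation tests, adjusted p = 0.0007 and 0.00175, r = 0.67 without the 2). In batch 2 it also followed the list of neuronal maturation, neurofilaments and synaptic genes among them (r = 0.83, rho 0.79, permutation tests, adjusted p = 0.00084 and 0.00175, r = 0.78 without the 2), which in batch 1 it did not (r = 0.56, exact permutation test, adjusted p = 0.387). In batch 2, Slc32a1 had r = 0.35 with the thalamus list and Slc12a5 had r = 0.25 with the striatum list (permutation tests, adjusted p = 0.233 and 0.430). In batch 1 the lists did not separate the genes, with r = 0.90 for Slc32a1 and the thalamus list and 0.79 for Slc12a5 and the striatum list (exact permutation tests, adjusted p = 0.0440 and 0.120). The differences between these r were not tested.

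Gad1 ran against the cortex and hippocampus list in batch 1 (r = -0.95, rho -0.89, exact permutation tests, adjusted p = 0.0440 and 0.0957, r = -0.96 without the 2 farthest litters). In batch 2 the r of -0.73 fell to -0.46 without 2 litters (rho -0.30, permutation tests, adjusted p = 0.0065 and 0.350) and rests on them. Slc12a2 had no relation past 0.1 with the choroid plexus list, which marks a tissue that makes NKCC1, in either batch (r = -0.19 with the exact permutation test, adjusted p = 0.727, and 0.15 with the permutation test, adjusted p = 0.681). It rose with the chloride handling list in batch 2 (r = 0.78, rho 0.79, permutation tests, adjusted p = 0.00117 and 0.00175), not in batch 1 (r = 0.05, exact permutation test, adjusted p = 0.926).

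**Figure D4:**
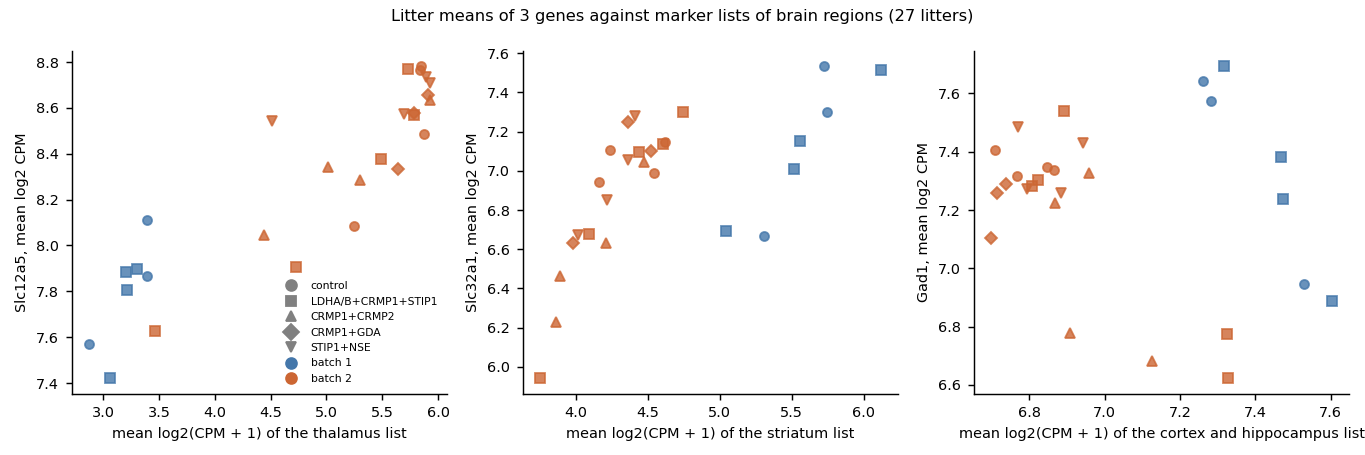
Litter means of log2 CPM of Slc12a5, Slc32a1 and Gad1 (vertical axes) against the mean log2(CPM + 1) of the thalamus, striatum, and cortex and hippocampus lists (horizontal axes), 1 point per litter, with batch by colour and group by shape. Within each batch Slc12a5 rises with the thalamus list (r = 0.81 and 0.84) and Slc32a1 with the striatum list (r = 0.90 and 0.89), and Gad1 falls as the cortex and hippocampus list rises (r = -0.95 and -0.73, the latter resting on a few litters).

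The genes most like each of the 5 over all 71 animals, with the batch means removed, included other members for the 3 GABA genes. For Gad1 they were Gad2 (r = 0.95), Rasgrf1 (0.94) and Hap1 (0.93), and for Gad2 they were Gad1, Rasgrf1 (0.93) and Abat (0.91), the transaminase that breaks GABA down. For Slc32a1 they were Gad1 (0.91), Ecel1 (0.91) and Nrsn2 (0.91). For Slc12a5 they were Cit (0.93), Grin2d (0.93), an NMDA receptor subunit, and Slc6a7 (0.92), a proline transporter, with the highest r lying outside the other members. Slc12a2 had no such near neighbour, the closest being Supt6h (0.72) and Snrnp200 (0.72), broadly expressed genes of transcription and splicing. These r are over 71 animals that share litters, among 11962 genes, and describe likeness only.

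The first exposure comparison set all 47 MARA-AB exposed animals against the 24 controls, with 1 surrogate variable, and none of the 5 genes was called. Gad1 was at 83.6, 165 and 311 CPM (lowest, median, highest) in controls and 57.8, 162 and 226 CPM in exposed animals, Gad2 at 26.3, 62.1 and 129 CPM and 16.6, 57.7 and 109 CPM, and Slc32a1 at 65.8, 129 and 217 CPM and 53.5, 133 and 203 CPM. Their log2 fold changes were -0.16 (SE 0.102), -0.19 (SE 0.142) and -0.13 (SE 0.111), with edgeR adjusted p of 0.587, 0.641 and 0.689. Slc12a2 was at 59.1, 70.6 and 89.7 CPM and 55.0, 77.1 and 110.2 CPM (0.05, SE 0.0425, edgeR adjusted p = 0.666), and Slc12a5 at 148, 317 and 449 CPM and 142, 289.9 and 549 CPM (-0.12, SE 0.0635, adjusted p = 0.508). The groups overlapped over nearly all of their range. Across all 12477 genes 0.0321% were called. In batch 2 alone the 5 values were -0.15, -0.20, -0.13, 0.08 and -0.15, none called. Of the 11 other GABA handling genes and the 19 of chloride handling none was called. The 10 choroid plexus genes were all positive (median 0.72), with 6 at an unadjusted p under 0.05, as were 6.08% of all genes in that direction, and none called, and the pineal gene Tph1 was called. Their part in the values of the 5 genes was not tested in this comparison.

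CRMP1+CRMP2 was the exposure in which members were called. Slc12a2 rose and Slc32a1 fell against the 24 controls, at a background of 11.4% of 12691 genes called (4.83% higher, 6.56% lower). The 5 exposure comparisons share these controls, so that their values are not independent of each other. Slc12a2 in the 8 exposed animals was at 75.8, 93.5 and 110.2 CPM against 68.1, 79.2 and 89.7 CPM in the 12 controls of the same batch. All 8 were above the median of the 24 controls, 7 were above that of the batch 2 controls, and 4 were above the highest control. The median of the 24 includes the lower batch 1 controls, and all 8 STIP1+NSE animals were above it too. The log2 fold change against all 24 controls was 0.31 (SE 0.065, edgeR adjusted p = 0.00843). The litter means were 98.7, 93.8, 99.9 and 79.6 CPM in the 4 exposed litters and 82.5, 73.2, 80.7 and 75.7 CPM in the 4 batch 2 control litters, with 3 exposed litters above every control litter.

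Slc32a1 was at 53.5, 101 and 146 CPM in CRMP1+CRMP2 and 115, 128 and 161 CPM in batch 2 controls. Of the 8 animals 4 were below the lowest batch 2 control, 6 were below the median of all controls and 1 was below the lowest control of either batch. Its log2 fold change against all controls of both batches was -0.54 (SE 0.181, edgeR adjusted p = 0.0742). The litter means were 99.5, 75.3, 101 and 132 CPM against 123, 127, 138 and 142 CPM in batch 2 control litters, so that 3 of the 4 exposed litters lay below every control litter and the fourth lay among them.

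The GAD genes and KCC2 had negative values that did not pass. The fold changes with all 8 animals are against all controls of both batches, whereas the CPM beside them are of batch 2 controls alone. Gad1 was at 57.8, 143 and 182 CPM in CRMP1+CRMP2 against 134, 165 and 201 CPM in batch 2 controls (-0.46, SE 0.184, edgeR adjusted p = 0.122), with 3 of 8 animals below the lowest batch 2 control. Gad2 was at 16.6, 49.4 and 67.7 CPM against 49.9, 59.2 and 77.5 CPM (-0.58, SE 0.25, adjusted p = 0.154), with 4 of 8 below. Slc12a5 was at 161, 349 and 456 CPM against 235, 431 and 449 CPM (-0.21, SE 0.0948, adjusted p = 0.173), with 1 animal below and 1 above the range of the batch 2 controls. The ratio of NKCC1 to KCC2 RNA was 0.274 ± 0.144 (SD, n = 8) against 0.178 ± 0.0345 (n = 12), its highest value, 0.593, being that of replicate 2, and 0.228 ± 0.0701 (n = 7) without it. Without replicate 2 the edgeR values were -0.34 for Gad1, -0.43 for Gad2 and -0.13 for Slc12a5 (adjusted p = 0.228, 0.269 and 0.475), and within batch 2 without it they were -0.17 for each of the 3.

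These calls did not stand on controls of the same batch or on litters. Within batch 2, with sex as covariate, Slc12a2 was at 0.23 (SE 0.0699, edgeR adjusted p = 0.116) and Slc32a1 at -0.39 (SE 0.148, adjusted p = 0.175). With counts summed per litter the adjusted p from edgeR was 0.435 and 0.438. Without replicate 2 Slc12a2 stayed called (0.25, edgeR adjusted p = 0.0375) and Slc32a1 did not (-0.45, adjusted p = 0.127), and within batch 2 without it neither was (0.18, adjusted p = 0.212, and -0.29, adjusted p = 0.235). Without litter 9_6 Slc12a2 was at 0.28, at the edge of the threshold (edgeR adjusted p = 0.1001), and Slc32a1 at -0.39 (adjusted p = 0.526). Leaving out litter 9_11 ended the call of Slc32a1 (-0.51, edgeR adjusted p = 0.156). The directions of both genes were kept in each of these fits.

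Tissue markers differed in the same animals. In CRMP1+CRMP2, 9 of 10 choroid plexus genes rose (median 1.71), with Ttr, the transthyretin of choroid plexus, at 2.70, and all 5 pineal genes rose, with Aanat, the enzyme that times melatonin synthesis, at 3.84. Without replicate 2 none of the 10 choroid plexus genes was called (median 0.72), and 1 of the 2 pineal genes still tested was. Choroid plexus CPM ran from 244 to 3586 in the 8 animals and from 172 to 3055 in batch 2 controls, an overlapping range. With the choroid plexus score as a covariate, Slc12a2 stayed called (0.20, SE 0.0694, edgeR adjusted p = 0.0960) and Slc32a1 did not (-0.44, adjusted p = 0.177). Without the libraries with at least 10 CPM of pineal or Hox RNA, which leaves 4 exposed animals, Slc12a2 was at 0.19 and Slc32a1 at -0.25 (edgeR adjusted p = 0.412 and 0.660).

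GABAergic markers had values in the direction of Slc32a1. Of 16 genes of forebrain GABA lineages 4 fell (Dlx1 -0.39, Dlx2 -0.50, Sp8 -0.93 and Sst -0.53) and 1 rose, with a median of -0.25 against 0.0073 for all genes. Dlx1 and Dlx2 specify forebrain inhibitory neurons, Sp8 marks interneurons of caudal and lateral origin, and Sst encodes somatostatin. None of the 13 striatum genes was called (median -0.58, all negative). Without replicate 2 the lineage list had 1 gene called, Sp8 (-0.91), and its median was -0.23, and the striatum list had none, with a median of -0.48. Within batch 2 without it the lineage and striatum lists had medians of -0.11 and 0.03, in a fit where edgeR called 0 of 12572 genes (2327 at an unadjusted p under 0.05). Of 6 genes of oligodendrocyte precursors, cells that also carry NKCC1, 2 fell and none rose (median -0.18, and -0.14 without replicate 2, where 2 were called lower). Among the 11 genes of GABA handling, Glul (-0.32, SE 0.0846) and Gabbr1 (-0.14, SE 0.0462) fell and none rose. Both stayed called without replicate 2 (-0.29 and -0.15, edgeR adjusted p = 0.0606 and 0.0887). The transaminase Abat was at -0.31 with it and -0.17 without it (edgeR adjusted p = 0.262 and 0.507).

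Among the 19 other genes of chloride handling in CRMP1+CRMP2, 3 rose and 1 fell (median 0.13). The ones that rose were the potassium chloride cotransporters KCC1 (Slc12a4, 0.33, SE 0.103) and KCC4 (Slc12a7, 0.33, SE 0.0935) and carbonic anhydrase 2 (Car2, 0.46, SE 0.164), all of them also made outside neurons. Brain creatine kinase (Ckb), which binds KCC2, fell (-0.23, SE 0.0533, edgeR adjusted p = 0.0138). Of the 7 regulators of Slc12a5 none was called, and Egr4 was at -0.77 (SE 0.34, adjusted p = 0.161), and -0.78 without replicate 2 (adjusted p = 0.224). Without replicate 2 the chloride handling list had 2 genes higher, the bicarbonate transporter Slc4a8 (0.40) and Wnk1 (0.31), a kinase upstream of SPAK, and 1 lower, Ckb (-0.23), whereas KCC1 (Slc12a4, 0.18), KCC4 (Slc12a7, 0.25) and Car2 (0.17) were no longer called. The list had 0 higher and 1 lower without the libraries rich in pineal RNA.

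**Figure D5:**
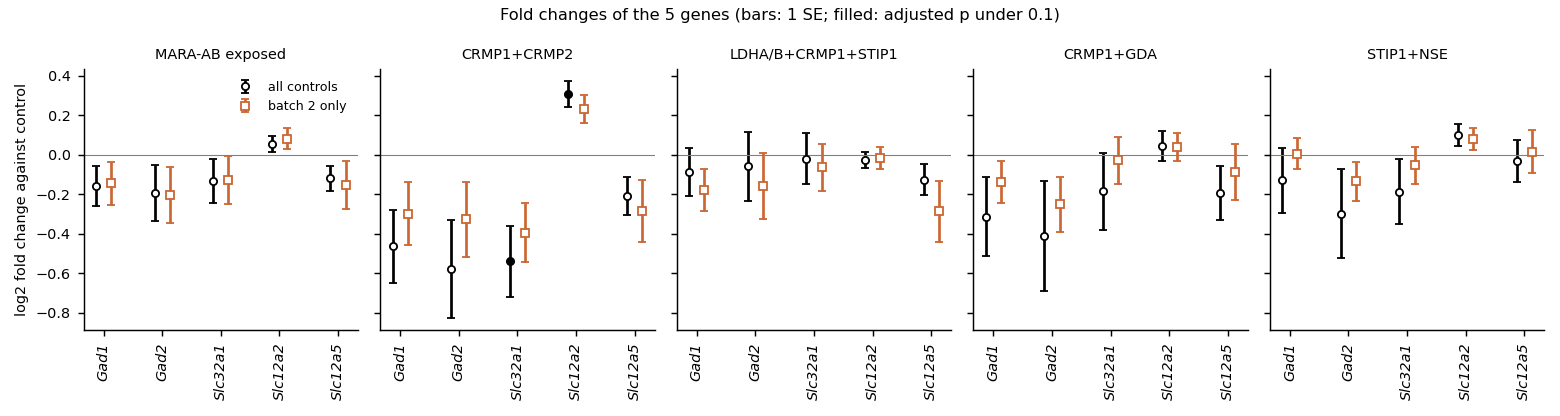
Log2 fold changes of the 5 genes against control (vertical axis) for all MARA-AB exposed animals and each exposure, with all 24 controls and 1 surrogate variable (black circles) or batch 2 alone with sex as covariate (orange squares). Bars are 1 SE and filled symbols have an adjusted p under 0.1, which only Slc32a1 (-0.54) and Slc12a2 (0.31) of CRMP1+CRMP2 against all controls do.

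LDHA/B+CRMP1+STIP1 was the exposure measured in both batches, and no member was called, with 0.0157% of 12700 genes called. In the 16 batch 1 animals Gad1 was at 89.9, 178 and 226 CPM, Slc32a1 at 78.6, 156 and 203 CPM, Slc12a2 at 55.0, 65.1 and 75.7 CPM and Slc12a5 at 142, 236 and 282 CPM. In the 9 batch 2 animals the same genes were at 98.6, 154 and 194 CPM, 61.5, 133 and 158 CPM, 71.4, 80.2 and 86.5 CPM, and 192, 349 and 481 CPM. Each overlapped the controls of its batch. The log2 fold changes over both batches were -0.09 for Gad1, -0.06 for Gad2, -0.02 for Slc32a1, -0.03 for Slc12a2 and -0.13 for Slc12a5 (SE 0.123, 0.175, 0.128, 0.0401 and 0.0791, edgeR adjusted p from 0.790 to 0.990). Slc12a5 was at -0.12 (SE 0.119) in batch 1 and -0.29 (SE 0.153) in batch 2, where 8 of 9 animals lay below the control median. The test of the difference between batches, an interaction term, gave -0.15 (SE 0.204, adjusted p = 1.00) for Slc12a5 and called none of the 5 genes, with 0.11% of genes called.

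In CRMP1+GDA no gene of 12641 was called by edgeR (0%, with 462 at an unadjusted p under 0.05 and 0 called by DESeq2), and in STIP1+NSE 0.0474% of 12660 were, none of them a member. In the 6 CRMP1+GDA animals Gad1 was at 101, 153 and 187 CPM, Gad2 at 32.2, 49.6 and 78.0 CPM, Slc32a1 at 75.3, 132 and 182 CPM, Slc12a2 at 69.5, 80.6 and 91.8 CPM and Slc12a5 at 289.9, 367 and 549 CPM. Gad2 had the most negative value against all controls of both batches, -0.41 (SE 0.278, edgeR adjusted p = 0.999). Of the 6 animals 4 lay below the lowest batch 2 control for Gad2 and 1 lay above the highest. In the 8 STIP1+NSE animals the 5 genes were at 126, 167 and 199.9 CPM, 34.6, 57.7 and 65.2 CPM, 93.1, 129 and 158 CPM, 77.1, 81.9 and 91.7 CPM, and 304, 389.9 and 477 CPM. Their log2 fold changes ran from -0.30 (Gad2, SE 0.226) to 0.10 (Slc12a2, SE 0.057), and both signs of Gad1 and Slc12a5 occurred among the alternatives.

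Within batch 2, an F test over the 5 groups called none of the 5 genes, with 0.00803% of 12461 genes called. Slc12a2 had the smallest unadjusted p of the 5, 0.0068 (edgeR adjusted p = 0.591), with group means of 93.0 CPM in CRMP1+CRMP2, 83.7 in STIP1+NSE, 81.0 in CRMP1+GDA, 79.2 in controls and 78.7 in LDHA/B+CRMP1+STIP1 and SDs from 5.52 to 12.2 CPM. The mean of CRMP1+CRMP2 lay within its own SD (12.2 CPM) of the next mean, that of STIP1+NSE, but not within the SD of STIP1+NSE (6.11 CPM). The other neighbours in this order lay within 1 SD of each other. Slc32a1 had its lowest mean in CRMP1+CRMP2 too, 102 ± 34.5 CPM (SD, n = 8), against 127 to 132 CPM in the other 4 groups.

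No member was called between the sexes, where 0.0641% of 12477 genes were called. Gad1 was at 87.6, 163 and 311 CPM in the 35 males and 57.8, 163 and 240.0 CPM in the 36 females, with a log2 fold change, male against female, of 0.16 (SE 0.0972, edgeR adjusted p = 0.987). Slc32a1 had 0.17 (SE 0.101), Gad2 0.14 (SE 0.129), Slc12a5 0.10 (SE 0.0847) and Slc12a2 -0.02 (SE 0.0307), all with an adjusted p of 0.987 or above. In batch 1 alone the values of Gad1, Gad2 and Slc32a1 were 0.38, 0.41 and 0.38, with adjusted p of 0.711 to 0.731. No interaction of exposure with sex was called by edgeR for any of the 5 genes, the largest being 0.25 (SE 0.285, adjusted p = 1.00) for Gad2. That test called 0% of genes, with 388 at an unadjusted p under 0.05 and 5 called by DESeq2.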

How the data were processed

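Libraries were poly-A enriched, with paired reads of the Illumina platform. The deposited table holds whole-number counts per gene, which the authors made with STAR 2.5.4b (alignment to rn7) and featureCounts, without normalization, and a further deposited column with the summed exon bases of every gene, which the counting tool wrote. Its options, and so strand and multi-mapping, are not given in the sources used here. Of counts from 1 to 9, 74.5% were even. Whether both mates of a pair were counted is not stated, so that a printed count may exceed the number of fragments, and counts halved and rounded were run as an alternative. Every column matched a sample (0 did not). Batches were read from the title series, and litter, sex and group from the labels.

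In R 4.3.3, edgeR 4.0.16 was used (TMM scaling, quasi-likelihood test with trended dispersion and robust fitting, Benjamini-Hochberg adjustment over all genes tested, FDR < 0.1). Exposures were fitted with 1 surrogate variable (sva 3.50.0), and the filter kept genes reaching 1 CPM in 8 or more samples (all exposed, sex and controls), exceeding 1 CPM in 2 or more (single exposures and the batch interaction) or reaching it in 6 or more (batch 2 groups). CPM were relative to the TMM-scaled total, and RPKM divided them by exon length. Relations used litter means within a batch (prior count 2, scipy 1.17.1). DESeq2 1.42.0, limma 3.58.1, median-ratio factors, other filters and covariates, litter sums, litter effects, single batches and litters left out were alternatives. Scripts were tested on simulated data. The genes named are the 5 members, list genes that were called or are the highest of their list, and the 3 most like each member. Abat and Egr4 are also named where not called, as chosen after their values were seen. Some genes that this rule names are not reported here. The members and gene lists were chosen with earlier results of these data known. Of the listed genes Dlx6, Rora, Emx1, Hoxb2 and Hoxb6 are not analysed here.

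Total counts were 24880182 to 36234952 per library, and the fewest of any member was 602. The values of n count animals, of which littermates share a dam.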

Additional observations from a re-analysis of the deposited data

How the results depend on the processing

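Of 485 alternatives of the members' log2 fold changes, 444 kept direction and side of the threshold, 18 lost the call, 4 gained it and 19 changed sign. Most of the 485 belong to genes not called in the main fit, which had no call to lose. The 18 lost calls were all in CRMP1+CRMP2, with Slc12a2 losing its call in 7 and keeping it in 10. Slc32a1 lost its call in 11 and kept it in 6. Between the control batches Slc12a2 and Slc12a5 each kept their call in 13. The choices were the scaling, the test, the filter, the covariates, the batch and the treatment of litters, with the ones on single libraries, pineal, Hox and choroid plexus RNA and halved counts chosen after seeing the data. The cause of each change was not tested.

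In CRMP1+CRMP2, 1445 genes were called, 491 with batch and sex as covariates, 0 with counts summed per litter (1381 at an unadjusted p under 0.05), 0 with litter as a random effect (1689), 127 in batch 2 alone, 322 without pineal-rich libraries, 1 without pineal- or Hox-rich ones and 0 in batch 2 without the second library (2327). Slc32a1 lost its call under these 7 settings, at -0.40, -0.38, -0.47, -0.39, -0.38, -0.25 and -0.29, without replicate 2 at -0.45, and with the choroid plexus covariate at -0.44. Slc12a2 lost it with litter sums (0.25), the random effect (0.23), batch 2 alone (0.23), without pineal-rich (0.22) and pineal- or Hox-rich libraries (0.19), and in batch 2 without the second library (0.18). Gad1 was called by DESeq2 (-0.46, adjusted p = 0.0874). Leaving out 1 litter gave 41 to 2889 genes (41 without 9_6, 799 without 9_11, 2889 without 9_16), -0.56 to -0.35 for Gad1 (called without 9_16, and -0.34 without replicate 2), -0.70 to -0.39 for Slc32a1 and 0.25 to 0.38 for Slc12a2.

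For all exposed animals 4 genes were called, 1 with median-ratio factors, 16 by DESeq2, 13 without a filter, 1 with halved counts, and 0 with batch and sex (1137 at an unadjusted p under 0.05), litter sums (259), the random effect (396) or batch 2 alone (793), and 0 to 63 without 1 control litter. For LDHA/B+CRMP1+STIP1 it was 15 by DESeq2, 7 without a filter, 0 with litter sums (374), the random effect (500) or batch 2 alone (706), and 2 to 44 without 1 litter, where Gad2 ran from -0.15 to 0.014 and Slc32a1 from -0.11 to 0.021. For CRMP1+GDA it was 5 with batch and sex, 1 in batch 2 alone and 1 to 4 without 1 litter, where Slc12a2 ran from -0.051 to 0.13 and Slc32a1 from -0.31 to 0.026. For STIP1+NSE it was 3 by DESeq2, 0 with batch and sex (274), litter sums (154), the random effect (96) or batch 2 alone (334), and 1 to 13 without 1 litter. There Gad1 changed sign with batch and sex (0.0026), litter sums (0.012) and batch 2 alone (0.0057), and Slc12a5 with batch and sex (0.015), litter sums (0.083), the random effect (0.065) and batch 2 alone (0.015).

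Between control batches litter sums called 1895 genes, and leaving out 1 litter gave 3760 to 5056, with Gad1 from -0.30 to 0.013, Gad2 from -0.62 to -0.16 and Slc32a1 from -0.40 to -0.031. Between the sexes in batch 2 alone, Gad2 (-0.039) and Slc12a5 (-0.012) changed sign. DESeq2 called 15 genes over the 5 groups, 6 for the batch interaction and 5 for the sex interaction, and the random effect 0 in the first (191) and in the second (73). With the random effect the batch interaction of Slc32a1 was -0.062 and the sex interactions of Slc12a2 and Slc12a5 were -0.025 and -0.019.

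With animals in place of litter means, which counts littermates as independent, r passed in batch 1 for Slc12a2 with Gad1 (-0.48), Gad2 (-0.47), Slc32a1 (-0.59) and Slc12a5 (-0.37) and in batch 2 with Gad2 (-0.29), and that of Slc12a2 and Slc12a5 in batch 2 was -0.10. Gad1 and Slc12a2 in batch 2 no longer passed without control litters (-0.37), a setting with too few litters in batch 1. No paired analysis was possible between exposed and control animals because each litter has 1 exposure, so that replicate numbers only name animals. Males and females can be compared within the litters that hold both sexes, but values of such a comparison are not given here. The study also grouped litters by date into cohorts, which the labels used here do not give, and no fit with cohort as a block was run. No member had fewer than 602 counts in a library, and an exposure has as few as 3 litters.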
